A study of Mus musculus with 8 samples.

Results

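The 10 genes described here encode the core transcription factors that give heart muscle cells their identity. They are Gata4, Gata6, Nkx2-5, Tbx5, Tbx20, Hand2, Mef2a, Mef2c, Mef2d and Srf, taken by name from the 55573 genes of the count table, and all 10 were found. Expression was measured by RNA sequencing of hearts from male mice of the C57BLKS/J strain at 24 weeks of age, with 4 db/m and 4 db/db libraries. The db/db mouse is homozygous for a mutation of the leptin receptor gene in every cell and becomes obese and diabetic, and the heterozygous db/m mouse is its lean control. No drug, diet or transgene is named for either group. The labels do not say whether whole hearts or one chamber were taken, nor that each library is a separate animal, so each p-value reflects the spread among these samples alone, and that spread may be technical.

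In development, GATA4, NKX2-5 and TBX5 occupy the enhancers of heart muscle genes together and help each other to bind, and loss of any of them disturbs heart formation. TBX20 is a T-box relative that also restrains other T-box genes, HAND2 is a basic helix-loop-helix factor of the right ventricle and outflow tract, and GATA6 overlaps with GATA4. MEF2 proteins and SRF belong to the MADS-box family, bind A/T-rich sites and carry calcium, growth and actin signals to muscle genes. In the adult heart the same factors maintain sarcomere, ion channel and metabolic genes, and GATA4, MEF2 and SRF are known for their part in hypertrophic growth. Several are also expressed outside muscle cells, GATA4, GATA6 and TBX20 in fibroblasts or endothelium and HAND2 in fibroblasts.

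The stretch before the start of Srf is shown because SRF is known to act on its own gene through CArG boxes, the sites it binds. The letters are the 250 bases before the RefSeq start (GRCm38.p6, chr17:46556163-46556412, minus strand), written 5′ to 3′ with CArG boxes in capitals.
Srf: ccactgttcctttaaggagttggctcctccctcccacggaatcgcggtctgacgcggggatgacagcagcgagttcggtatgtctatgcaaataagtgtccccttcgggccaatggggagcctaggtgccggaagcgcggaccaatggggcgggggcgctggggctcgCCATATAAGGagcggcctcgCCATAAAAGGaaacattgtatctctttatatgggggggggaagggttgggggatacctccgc
A search of both strands found 2 CArG boxes there, which begin 82 and 62 bases before the start. Of 32851 windows of the same length over all RefSeq starts 1.47% held such a box. RefSeq windows were matched for 7 of the 10 genes, 9 windows in all, and Srf was the gene among them with a CArG box. The word AGATAA, a form of the site that GATA factors bind, was in the window of Hand2 alone among the 7 genes, and in 9.99% of all windows. Other forms of the GATA site were not searched and are not marked. The Hand2 window (GRCm38.p6, chr8:57320733-57320982, plus strand) is shown because Hand2 had the largest positive fold change of the 10 genes, with the match, which lies on the opposite strand, in capitals.
Hand2: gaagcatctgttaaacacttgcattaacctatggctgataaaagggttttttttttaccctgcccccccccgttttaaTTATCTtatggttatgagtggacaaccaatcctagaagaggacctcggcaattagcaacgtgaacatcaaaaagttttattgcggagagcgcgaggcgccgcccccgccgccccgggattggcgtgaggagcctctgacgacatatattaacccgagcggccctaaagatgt
AGGTGT, a T-box word, was found in a window of Mef2c and in 11.8% of all windows, and TNAAGTG, an NKX2-5 word, in no window of the 7 genes and in 10.1% of all. The MEF2 site, searched by its usual consensus, was also in no window of the 7 genes and in 0.508% of all. A match describes letters and does not show binding.

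All 10 genes were expressed in every library, with 583 to 11931 counts per gene and library. Levels between genes are compared as CPM per kb, that is counts relative to the scaled library size (CPM) divided by exon length in kilobases. Nkx2-5 had the highest mean level, 73.6 ± 13.3 CPM per kb (SD, n = 8), and ranked first in 7 of the 8 libraries. Srf (51.1 ± 9.03) and Gata4 (51.0 ± 5.28) followed and could not be ordered, since Srf was the higher in 4 of 8 libraries. Mef2d had 41.3 ± 4.77 and lay below Gata4 in all 8 libraries. Hand2 (23.4 ± 6.95), Tbx20 (20.8 ± 8.53) and Mef2a (19.96 ± 2.38) formed the next level, with Tbx20 above Mef2a in 2 of 8 libraries. Gata6 had 15.6 ± 2.52 and lay below Mef2a in all 8. Tbx5 (9.87 ± 4.30) and Mef2c (8.37 ± 1.19) were lowest and changed places in 4 of 8 libraries. Per length, Gata4 was the higher of the GATA genes and Mef2d the highest of the MEF2 genes. The MEF2 order rests on the exon lengths used, 14681 bases for Mef2a and 5985 for Mef2d. In CPM not divided by length Mef2a averaged 288 in db/m and 298 in db/db, above the 238 and 256 of Mef2d.

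**Figure D1:**
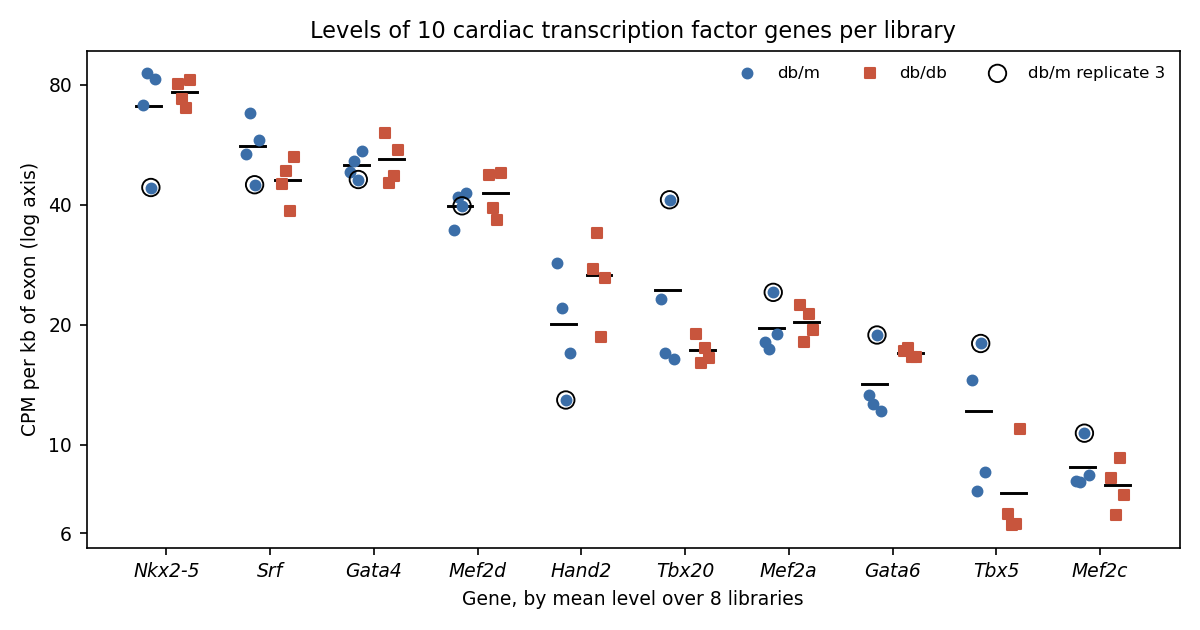
Levels of the 10 genes in each library, in CPM per kb of exon on a log axis, ordered by the mean over 8 libraries. Circles are db/m, squares db/db, short lines group means, and rings mark db/m replicate 3, which was the highest library for Gata6, Tbx5, Tbx20, Mef2a and Mef2c and the lowest for Nkx2-5 and Hand2.

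Total counts per library were 19541757 to 22249911. Markers common to all heart muscle cells were abundant throughout, with 10 markers summing to 23684 to 30396 CPM for db/m and 23332 to 28579 for db/db. Of this, Myh6 alone gave 14386 to 20479 CPM in db/m and 13792 to 17324 in db/db. In db/m replicate 3 Myh6, Ttn and Ryr2 were the highest of the 8 libraries. Tnnt2 (489 CPM), Tnni3 (417), Ldb3 (737) and Mybpc3 (1447) were the lowest there, so the sum hides opposite courses. The control libraries differed among themselves in the markers of other cell types. The 12 atrial markers summed to 2231 CPM in db/m replicate 1 and 5085 in db/m replicate 3, against 145 to 257 in the other 6 libraries. In 11 of these 12 markers both libraries lay above the other 6, and Sln, an atrial regulator of the calcium pump, had 0 counts in all 4 db/db libraries. The 12 adipocyte markers summed to 1617 and 3188 CPM in the same pair against 81.9 to 102 elsewhere, with 12 of 12 above. The sum of 8 ventricular markers was 2918 CPM for db/m replicate 3, below the 5337 to 8735 CPM of all other libraries. Of these markers Myl2 (117 CPM), Myl3 (758), Fhl2 (300) and Irx4 (26.9) were lowest in that library. Myh7 went the other way, with 1201 CPM there against 398 to 451 in the other db/m libraries. Hey2, at 12.2 CPM, was also highest there. The 9 markers of the conduction system summed to 101 to 147 CPM in the controls and 62.8 to 82.0 in db/db hearts, with no overlap, and db/m replicates 1 and 3 were again the highest. Of the 7 tested, 0 were higher and 5 lower at an unadjusted p under 0.05, beside 5.12% and 7.84% of all genes. Taken singly, 1 of the 7 had groups without overlap, beside 9.65% of all genes. Tbx3 overlapped, with 37.3 to 68.9 CPM in db/m and 31.8 to 53.2 in db/db. By adjusted p under 0.05 in edgeR 0 passed with all libraries. Without db/m replicate 3, 1 did (0.6% of all genes), and without db/m replicates 1 and 3 also 1 (0.256%). The median log2 fold change of the 7 was -0.71, or -0.49 without db/m replicates 1 and 3. Isl1, too rare to test, had at most 15 counts. Those fell in db/m replicates 1 and 3 alone, and the other 6 libraries, db/m replicates 2 and 4 included, had 0. In bulk RNA a change in the number of cells of a type and a change in RNA per cell cannot be told apart. Across all 17411 genes tested, db/m replicate 3 was the highest or lowest of the 8 libraries in 63.8%, and among the 10 factors in 7, a share near that background. The 5 factors highest in that library had 4675 to 15715 exon bases. Nkx2-5 and Hand2, lowest there, had 1719 and 2351. Mef2d, with 5985 exon bases, was neither highest nor lowest there. The part of exon length or library quality in these values was not tested.

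Whether the cardiac factors differ with the diabetic genotype was tested by comparing the groups across all genes. By edgeR with Benjamini-Hochberg adjustment 0 of the 10 passed, with adjusted p from 0.373 to 0.891. Over all genes a single gene passed, or 0.00574% of those tested, and a p that misses the threshold does not show that levels were equal. At an unadjusted p under 0.05 there was 1 of the 10, Tbx5, beside 13.0% of all genes. DESeq2 called 0 of the 10 (2.17% of all genes) and limma-voom with sample quality weights 0 (0.58%). The quality weight was 0.124 for db/m replicate 3 and 0.943 to 2.09 for the other libraries. With the replicate number as a block edgeR called 0 of the 10 (0.0287% of all genes). The groups did not overlap in 0 of the 10, against 9.65% of all genes. Log2 fold changes of db/db over db/m were positive in 6 and negative in 4 factors, with a median of 0.049 against -0.019 over all genes, and 47.7% of all genes were positive.

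**Figure D2:**
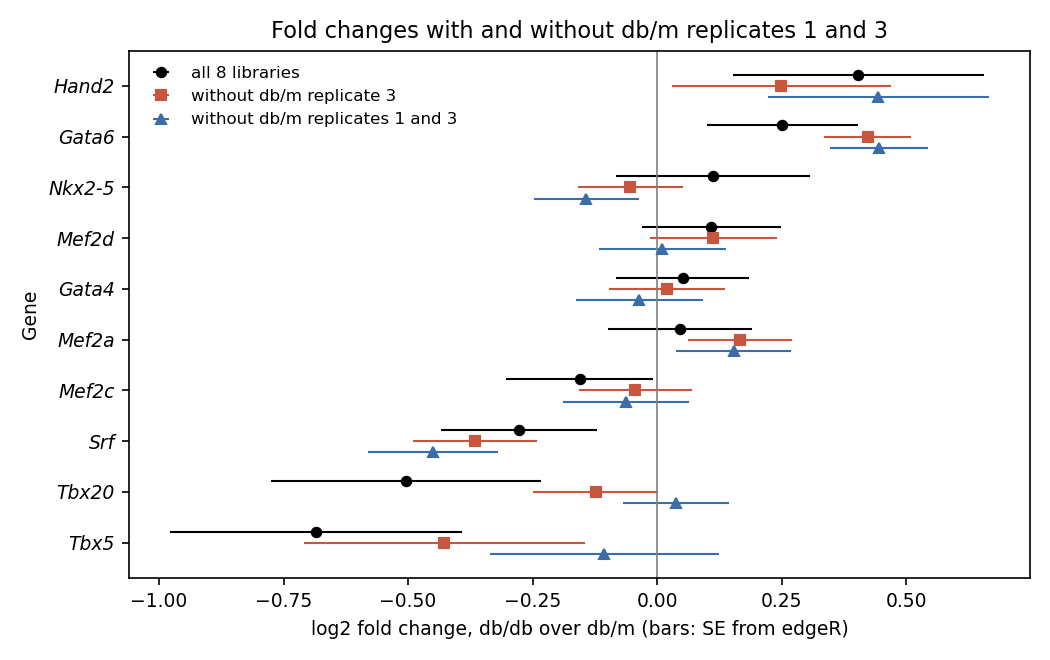
Log2 fold change of each factor, db/db over db/m, with bars for the SE from edgeR, in all 8 libraries (circles), without db/m replicate 3 (squares) and without db/m replicates 1 and 3 (triangles). Tbx5 goes from -0.68 to -0.11 and Tbx20 from -0.50 to 0.038 without both libraries, while Gata6 goes from 0.25 to 0.45 and Srf from -0.28 to -0.45.

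Gata4 (ENSMUSG00000021944, chromosome 14, 63198922 to 63271692 on mm10), a zinc finger factor that recruits partners to muscle enhancers, had the smallest spread of the 10 among the controls. Its level was 188, 201, 180 and 213 CPM in db/m replicates 1 to 4 and 236, 177, 184 and 214 CPM in db/db replicates 1 to 4. The db/m range lay within the db/db range. The genotypes differed by 0.051 in log2 fold change (SE 0.13), with an interval of 2 SE either side from -0.22 to 0.32 (edgeR with Benjamini-Hochberg adjustment, adjusted p = 0.862). Among 3665 genes within the same span of mean CPM as the 10 factors, 11.1% had a smaller SD of log2 CPM in db/m than Gata4, and 75.3% a smaller SD in db/db.

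Gata6 (ENSMUSG00000005836, chromosome 18, 11052064 to 11085635), its relative in muscle, endothelium and smooth muscle, had 86.7, 82.1, 122.6 and 79.1 CPM in db/m replicates 1 to 4. In db/db replicates 1 to 4 it had 112, 114, 108 and 108 CPM. The db/db values lay above db/m replicates 1, 2 and 4 and below db/m replicate 3. Their coefficient of variation was 2.57%, against 21.8% in db/m, and 2.56% of the 3665 genes had a smaller SD of log2 CPM in db/db. The log2 fold change was 0.25 (SE 0.15; edgeR with Benjamini-Hochberg adjustment, adjusted p = 0.474). Without db/m replicate 3 it was 0.42 (SE 0.088), a fit in which 0.6% of all genes passed and Gata6 came nearest of the 10 (adjusted p = 0.0576 by edgeR). With both db/m replicates 1 and 3 left out it was 0.45 (adjusted p = 0.0933 by edgeR), and in that fit 0 of the 10 and 0.256% of all genes passed. The 10 endothelial markers summed to 2140 to 2343 CPM for db/m and 1975 to 2535 for db/db, and the 10 fibroblast markers to 2445 to 4994 and 2484 to 3979. The 10 smooth muscle and pericyte markers summed to 2497 to 2806 and 2265 to 2782. No defining marker of these 3 lists was at 0, and their part in the Gata6 values was not tested.

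Nkx2-5 (ENSMUSG00000015579, chromosome 17, 26838664 to 26845009), the homeobox factor of heart muscle and the conduction system, had 122, 147, 75.9 and 142 CPM in db/m and 138, 126, 120 and 142 CPM in db/db, replicates 1 to 4. Db/m replicate 3 stood below the 119.9 to 146.7 CPM of the other 7 libraries. It also had the lowest ventricular marker sum, though Myh7 and Hey2 of that list were not lowest there. Tnnt2 and Tnni3, counted among the markers of all heart muscle cells, were lowest there too. The log2 fold change was 0.11 (SE 0.19) with all libraries and -0.054 (SE 0.11) without db/m replicate 3. Neither value passed (adjusted p = 0.792 and 0.875 by edgeR). The part of ventricular RNA in the Nkx2-5 values was not tested.

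The T-box genes had the most negative fold changes of the 10, and both were highest in db/m replicates 1 and 3. Tbx5 (ENSMUSG00000018263, chromosome 5, 119832668 to 119885219), a factor of the atria, left ventricle and conduction system, had 67.8, 35.8, 83.9 and 39.99 CPM in db/m replicates 1 to 4. In db/db replicates 1 to 4 it had 31.4, 29.4, 29.6 and 51.3 CPM. Replicates 1 and 3 of db/m stood above all other libraries, and db/db replicate 4 stood above db/m replicates 2 and 4. On the log2 scale the fold change was -0.68 (SE 0.29; edgeR with Benjamini-Hochberg adjustment, adjusted p = 0.373). Leaving out db/m replicate 3 gave -0.43, leaving out db/db replicate 4 gave -0.91 and leaving out db/m replicates 1 and 3 gave -0.11 (SE 0.23), with adjusted p of 0.574, 0.479 and 0.921 by edgeR.

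Tbx20 (ENSMUSG00000031965, chromosome 9, 24718138 to 24774303), which both activates and represses in adult heart muscle, had 278, 204, 493 and 197 CPM in db/m replicates 1 to 4. In db/db replicates 1 to 4 it had 228, 192, 210 and 198 CPM. The same 2 db/m libraries were highest, and the other 6 libraries lay between 192 and 228 CPM. The log2 fold change was -0.50 (SE 0.27; adjusted p = 0.438 by edgeR), but -0.12 (SE 0.13) without db/m replicate 3 and 0.038 (SE 0.11) without both. Tbx5 and Tbx20 were the 2 factors of 10 with both libraries above the other 6, a pattern seen in 15.0% of all genes tested, so the share of members was near the background. Within libraries the Tbx5 to Tbx20 ratio of levels per kb averaged -0.99 ± 0.24 on the log2 scale among controls and -1.22 ± 0.43 among db/db hearts (SD, 4 libraries each; exact permutation test, two-sided, p = 0.400, or 0.667 after Benjamini-Hochberg adjustment over 5 ratios). The atrial and adipocyte markers stand highest in the same pair of libraries, and their part in the Tbx5 and Tbx20 values was not tested. Without that pair the T-box fold changes were -0.11 and 0.038. The sum of the conduction markers was also lower in all db/db hearts, at 62.8 to 82.0 CPM against 101 to 147, and its part in the Tbx5 values was not tested.

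**Figure D3:**
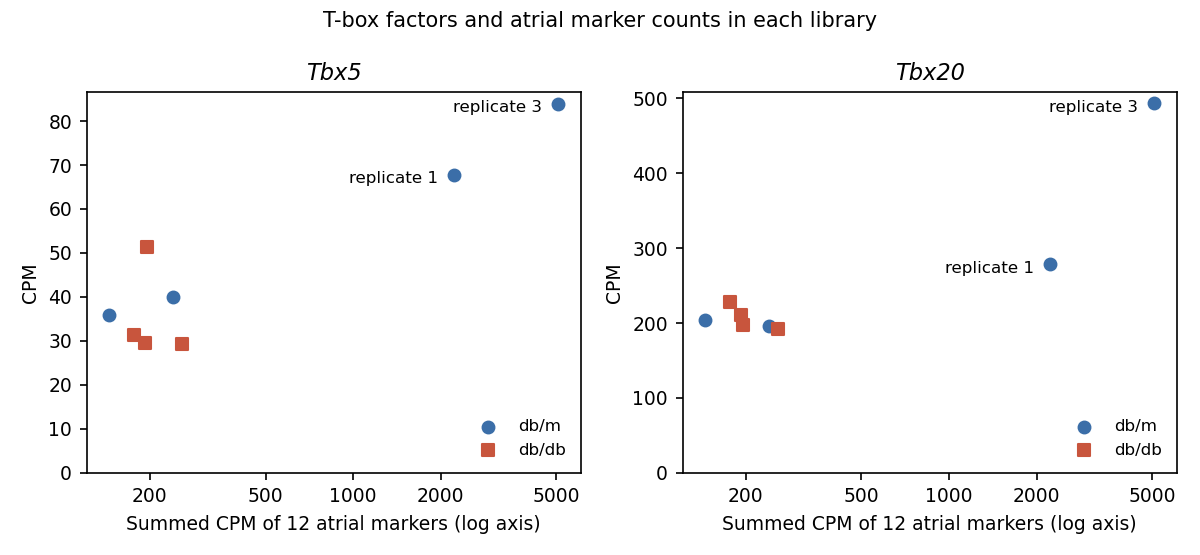
Tbx5 (left) and Tbx20 (right) in CPM against the summed CPM of 12 atrial markers on a log axis, one point per library. Db/m replicates 1 and 3 sit apart at atrial sums of 2231 and 5085 CPM with the highest values of both genes, and the other 6 libraries lie at sums of 145 to 257 CPM.

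Hand2 (ENSMUSG00000038193, chromosome 8, 57320983 to 57324633) is a growth-promoting factor of the embryonic right ventricle that stays on in adult muscle cells and fibroblasts. It had 67.1, 51.6, 30.4 and 39.9 CPM in db/m replicates 1 to 4 and 64.9, 79.7, 43.9 and 61.7 CPM in db/db. Libraries differed widely within both groups, and the ranges overlapped. Of the 3665 genes spanning the levels of the 10 factors, 95.2% had a smaller SD of log2 CPM in db/db, a pool in which Hand2 lies at the low end. Its log2 fold change of db/db over db/m was 0.40 (SE 0.25; edgeR with Benjamini-Hochberg adjustment, adjusted p = 0.483). It ranged from 0.25 (db/m replicate 3 left out) to 0.62 (db/m replicate 1 left out).

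An antisense long noncoding RNA gene, Hand2os1 (ENSMUSG00000100510, chromosome 8, 57281117 to 57324233, minus strand), runs across Hand2 in the other direction and is known as a regulator of the locus. It shares 461 exon bases with Hand2, or 19.6% of the length of Hand2, and the use of strand in the counting is not given in the sources used here. Reads from the shared bases therefore cannot be assigned with certainty. Hand2os1 had 33.2, 32.7, 24.5 and 24.3 CPM in db/m and 27.7, 22.9, 20.2 and 17.3 CPM in db/db. Its groups overlapped only through db/db replicate 1. The log2 fold change was -0.38 (SE 0.18; adjusted p = 0.402 by edgeR), of opposite sign to that of Hand2, and neither passed. Among the other factors, opposite-strand genes shared 8.87% of the length of Mef2d (1700113A16Rik, at most 10 counts per library), 2.06% of Mef2a (Lysmd4) and 1.43% of Gata6 (1010001N08Rik). No other of the 10 genes shared exon bases with another gene of the table.

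The 3 MEF2 genes had small fold changes. Mef2a (ENSMUSG00000030557, chromosome 7, 67231163 to 67372858), a factor of adult muscle needed for mitochondrial upkeep, had 266, 255, 354 and 278 CPM in db/m and 328, 265, 312 and 285 CPM in db/db. Mef2c (ENSMUSG00000005583, chromosome 13, 83504034 to 83667080), which is needed in the embryonic heart and is expressed in endothelium too, had 128, 127, 168 and 132 CPM in db/m and 130, 105, 145 and 118 CPM in db/db. Mef2d (ENSMUSG00000001419, chromosome 3, 88142372 to 88172086), a carrier of stress signals in hypertrophy, had 207, 251, 238 and 256 CPM in db/m and 284, 235, 219 and 287 CPM in db/db. For Mef2a and Mef2c db/m replicate 3 was the highest library, and in all 3 genes the groups overlapped. Their log2 fold changes were 0.046 (SE 0.14, interval of 2 SE either side -0.24 to 0.34), -0.16 (SE 0.15, -0.45 to 0.14) and 0.11 (SE 0.14, -0.17 to 0.39). Adjusted p was 0.891, 0.626 and 0.723 by edgeR with Benjamini-Hochberg adjustment.

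The balance of Mef2a to Mef2c was steadier than either level. The log2 ratio of their levels per kb was 1.16, 1.11, 1.17 and 1.17 in db/m replicates 1 to 4 and 1.44, 1.44, 1.20 and 1.37 in db/db. All 4 db/db libraries lay above all 4 db/m libraries, db/m replicate 3 included. Control libraries averaged 1.15 ± 0.032 and db/db libraries 1.36 ± 0.11 (SD, n = 4), or 2.22 and 2.57 times as much Mef2a as Mef2c per kb of exon. The difference of 0.21 gave p = 0.0286 by a two-sided exact permutation test, which is the smallest value possible with 4 libraries a group. After Benjamini-Hochberg adjustment over the 5 ratios the permutation p was 0.143, and the difference did not pass. A ratio that is alone at the smallest p cannot pass over 5 ratios, so that outcome decides nothing about the difference. Differences from 0.18 to 0.26 were found when each library was left out, and 0.22 when db/m replicates 1 and 3 were. The other 3 ratios overlapped between genotypes. Gata4 to Gata6 had a mean log2 ratio of 1.84 ± 0.38 for db/m and 1.61 ± 0.20 for db/db (exact permutation p = 0.343). Mef2a to Mef2d had -1.02 ± 0.25 and -1.07 ± 0.22 (exact permutation p = 0.771). Nkx2-5 to Gata4 had 0.45 ± 0.36 and 0.56 ± 0.12 (exact permutation p = 0.83), with n = 4 in each group and adjusted p of 0.667 to 0.83 over the 5 ratios.

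**Figure D4:**
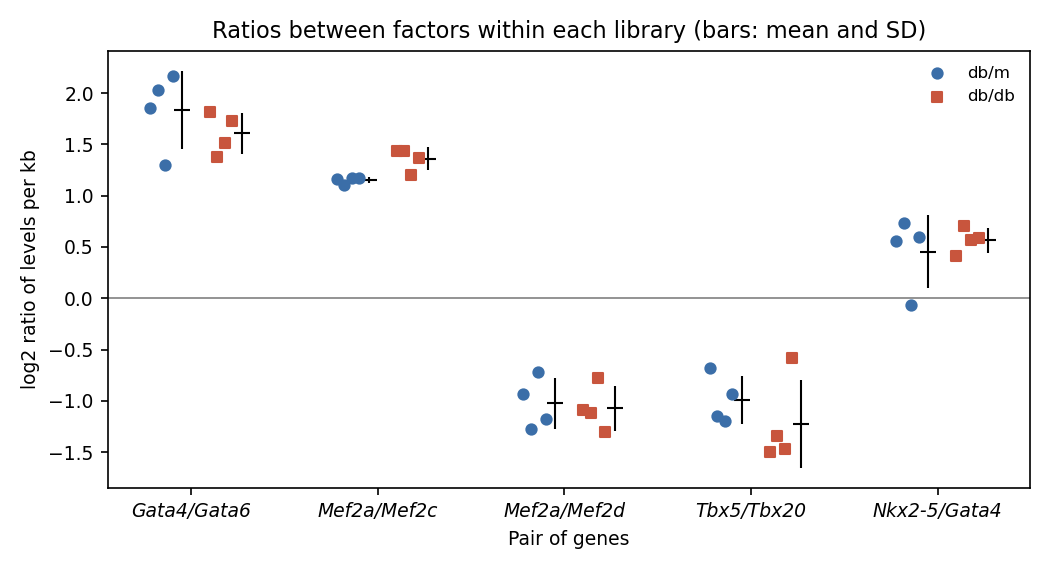
Log2 ratios of levels per kb for 5 pairs of factors in each library, with circles for db/m, squares for db/db and bars for the mean and SD. In the Mef2a to Mef2c pair the 4 db/m libraries lie between 1.11 and 1.17 and the 4 db/db libraries between 1.20 and 1.44, and the other 4 pairs overlap.

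Srf (ENSMUSG00000015605, chromosome 17, 46548329 to 46556175), which drives sarcomere, smooth muscle and immediate-early genes, had 155, 196, 130 and 168 CPM in db/m replicates 1 to 4. In db/db replicates 1 to 4 it had 130, 140, 112 and 153 CPM. The db/db libraries lay below db/m replicates 1, 2 and 4, and 3 of the 4 lay above db/m replicate 3. The log2 fold change was -0.28 (SE 0.16; edgeR with Benjamini-Hochberg adjustment, adjusted p = 0.448). With db/m replicate 3 left out it was -0.37 (SE 0.12, adjusted p = 0.235 by edgeR), and with db/m replicates 1 and 3 left out -0.45 (SE 0.13, adjusted p = 0.219 by edgeR). With db/m replicate 2 left out it was -0.17.

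Of 35 genes listed as SRF targets all were tested, and 0 passed by edgeR after adjustment over the table. At an unadjusted p under 0.05, 3 were higher, beside 5.12% of all genes, and 7 were lower, beside 7.84%. The median log2 fold change was -0.12 with all libraries and -0.016 without db/m replicates 1 and 3. Acta2, the smooth muscle actin, had 154, 133, 286 and 108 CPM in db/m and 35.1, 60.2, 64.0 and 65.0 CPM in db/db. Its groups did not overlap, and its log2 fold change was -1.60 (SE 0.31; adjusted p = 0.136 by edgeR), or -1.11 without both libraries. Dusp5, a phosphatase that dampens ERK signalling, had -0.86 (SE 0.23) and -0.84 without both. Cnn1, Lmod1, Flna and Actg2, contractile or cytoskeletal genes abundant in smooth muscle, were also at an unadjusted p under 0.05 and had their highest value in db/m replicate 3, as the atrial and adipocyte sums did. What that library adds to them was not tested. Cnn1 had 39.3 CPM there and 1.38 to 7.74 in the other db/m libraries, and its log2 fold change went from -2.29 to -0.035 without both. Lmod1 went from -1.25 to -0.12, Flna from -1.10 to -0.14 and Actg2 from -1.62 to -0.34. The remaining lower gene, Actb, had -0.32 (SE 0.14), or -0.22 without both. In the other direction Acta1, the skeletal actin that reappears in stressed heart muscle, had 0.90 (SE 0.30), Junb 0.54 (SE 0.18) and Ankrd1, a stretch-sensing cofactor, 0.68 (SE 0.22). In db/db replicate 3 Acta1 had 371 CPM against 731 to 948 in the other 3 db/db libraries. Adjusted p of these genes other than Acta2 was 0.238 to 0.373 by edgeR with Benjamini-Hochberg adjustment.

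The CArG boxes before these targets are shown because they are the same kind of site as those before Srf. Of 27 listed targets with a RefSeq window 9 held a box, and the box nearest to the start is given with 10 bases on each side, the box in capitals.
Acta1: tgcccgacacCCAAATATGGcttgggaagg
Actc1: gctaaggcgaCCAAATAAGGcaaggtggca
Actg1: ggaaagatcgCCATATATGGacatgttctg
Myl9: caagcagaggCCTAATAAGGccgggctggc
Fhl2: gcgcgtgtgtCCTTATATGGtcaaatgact
Dusp5: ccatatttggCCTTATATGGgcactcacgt
These lie on GRCm38.p6 at chr8:123894829-123894858, chr2:114052903-114052932 and chr11:120348566-120348595 on the minus strand, chr2:156775293-156775322 on the plus strand, chr1:43163973-43164002 on the minus strand and chr19:53529063-53529092 on the plus strand, in the same order. Log2 fold changes were 0.90 for Acta1, 0.22 for Actc1, -0.23 for Actg1, -0.70 for Myl9, 0.33 for Fhl2 and -0.86 for Dusp5. The stretch shown for Dusp5 opens with a further box, left in lower case, since its window held 2. Vcl, Fhl1 and Egr2 also held a box, with -0.13, -0.036 and -0.48. Boxes outside the window of 250 bases were not searched, so a target without one there may hold one elsewhere. The 9 targets with a box in the window had a median of -0.13, with 3 positive. The 18 without one there had a median of -0.018, with 9 positive. Without db/m replicates 1 and 3 the medians were -0.00061 and -0.019. In that fit Actc1 (-0.099), Myl9 (0.054), Fhl1 (0.19), Fhl2 (-0.072) and Egr2 (0.84) had the opposite sign, while Acta1 (0.64), Actg1 (-0.27), Vcl (-0.00061) and Dusp5 (-0.84) kept theirs. Without db/m replicate 3 alone Actc1 had -0.010 and Fhl2 0.023.

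Relatives of the factors within their own families were also measured. Of 16 paralogs 7 were frequent enough to test and 0 passed by edgeR, with 0 at an unadjusted p under 0.05, beside 13.0% of all genes. Their median was -0.24, but -0.041 without db/m replicate 3 and -0.12 without db/m replicates 1 and 3. The smallest p was that of Tbx18, a factor of the epicardium and sinus horns, with 12.8, 11.3, 18.0 and 8.12 CPM in db/m and 8.35, 7.27, 9.35 and 10.1 CPM in db/db. Its groups overlapped, and its log2 fold change was -0.52 (SE 0.24, adjusted p = 0.392 by edgeR), or -0.16 without both libraries. Tbx1 (0.63, SE 0.45), Tbx15 (-1.02, SE 0.81) and Tbx2 (0.17, SE 0.15) followed, with adjusted p of 0.535 to 0.603 by edgeR. Nkx2-3 and Nkx2-6 had 0 counts in all libraries, Hand1, the left-sided partner of Hand2, had at most 2 and Gata1, the red cell factor, at most 8. Mef2b had at most 17. Gata2, the endothelial and blood GATA factor, had 8.54 CPM per kb, below the 15.6 of Gata6, with a log2 fold change of 0.016 (SE 0.12). Tbx3, which represses working muscle genes in the conduction system, had 7.13 CPM per kb and Tbx2 had 5.94. Gata5, a factor of endocardium and epicardium, had 2.07, 0, 4.05 and 0 CPM in db/m replicates 1 to 4, with 98 counts at most. Its db/db mean was 0.135 ± 0.064 CPM (SD, n = 4), and each db/db library lay above db/m replicates 2 and 4. The epicardial markers summed to 61.6 CPM in db/m replicate 1, 104 in db/m replicate 3 and 69.5 in db/db replicate 1, against 26.5 to 31.9 in the other 5 libraries.

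Other factors work beside the 10 or mark the chambers. Of 37 partner and chamber factors 35 were tested and edgeR called 0 after adjustment over the table. At an unadjusted p under 0.05, 3 were higher, beside 5.12% of all genes, and 4 lower, beside 7.84%. The median was -0.23 (-0.079 without db/m replicate 3 and -0.13 without both db/m replicates 1 and 3). Irx3, an Iroquois factor of the ventricular conduction system, had 39.0, 44.6, 43.2 and 60.2 CPM in db/m and 75.9, 76.7, 78.9 and 82.6 CPM in db/db. All db/db libraries lay above all db/m libraries, and the log2 fold change was 0.75 (SE 0.15; adjusted p = 0.136 by edgeR). It was 0.72 with db/m replicate 3 left out and passed (adjusted p = 0.0435 by edgeR), and with both libraries left out it was 0.58 and did not (adjusted p = 0.0965 by edgeR). The conduction markers lay the other way, with sums of 62.8 to 82.0 CPM in db/db hearts below the 101 to 147 CPM of the controls, and their part in the Irx3 values was not tested. Klf15, a clock and glucocorticoid responsive factor that restrains MEF2 and GATA4, had 51.1, 42.1, 53.2 and 37.5 CPM in db/m and 67.3, 68.3, 68.9 and 58.6 CPM in db/db, also with no overlap. Its log2 fold change was 0.52 (SE 0.14; adjusted p = 0.243 by edgeR), and it passed without db/m replicate 3 (0.60, adjusted p = 0.0489 by edgeR) and without both (0.72, adjusted p = 0.0348 by edgeR). Irx1 averaged 7.87 ± 4.37 CPM for db/m and 17.5 ± 2.28 for db/db (SD, n = 4; log2 fold change 1.16, SE 0.38). Hey1, a Notch target and repressor, had 45.1 ± 15.0 and 28.2 ± 6.06 CPM (-0.68, SE 0.24). Adjusted p was 0.297 and 0.319 by edgeR. Without db/m replicates 1 and 3 Irx1 had 0.62 and Hey1 -0.98. The other lower genes were Nr2f1 (-0.68, SE 0.25), Etv1 (-0.78, SE 0.32) and Foxo1 (-0.51, SE 0.23), with adjusted p of 0.330 to 0.385 by edgeR. In the fit without both libraries they had -0.34, -0.069 and -0.16.

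Cofactors and signal carriers of the 10 factors formed a further list. Of 38 listed names 35 were found and tested, and 0 passed by edgeR, with a median of 0.017. At an unadjusted p under 0.05, 2 were higher and 1 lower, beside 5.12% and 7.84% of all genes. Besides Ankrd1, which averaged 567 ± 119 CPM for db/m and 906 ± 223 for db/db, these were the kinases Prkd1 (0.42, SE 0.17) and Prkd3 (-0.37, SE 0.14), which free MEF2 from class IIa histone deacetylases. Smyd2, a lysine methyltransferase, had 12.8 ± 3.87 and 17.7 ± 0.518 CPM (0.48, SE 0.22). Adjusted p of these 4 genes was 0.299 to 0.387 by edgeR with Benjamini-Hochberg adjustment. Without db/m replicate 3 Prkd3 had -0.23 and Smyd2 0.30, and without both libraries -0.17 and 0.17.

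Heart muscle genes that GATA4, NKX2-5, TBX5 and MEF2 are known to control had a median of 0.21 over the 39 tested of 40, and 0.058 without db/m replicates 1 and 3. None passed by edgeR, and 4 were higher and 3 lower at an unadjusted p under 0.05, beside 5.12% and 7.84% of all genes. Tcap, the titin cap protein of the Z-disc, had 437, 420, 197 and 550 CPM in db/m and 1145, 1405, 1425 and 1215 CPM in db/db. The groups stood well apart, with a log2 fold change of 1.70 (SE 0.27; adjusted p = 0.102 by edgeR) and 1.41 without both libraries, where it passed (adjusted p = 0.00387 by edgeR). Mybpc3, the cardiac myosin binding protein, averaged 1600 ± 148 CPM for db/m and 2256 ± 114 for db/db (SD, n = 4), again without overlap (0.50, SE 0.14; adjusted p = 0.251 by edgeR). The lower genes were Nppa, the atrial natriuretic peptide, Gja5, the connexin of atria and conduction fibres, and Chrm2, the muscarinic receptor. Nppa had 759 and 408 CPM in db/m replicates 1 and 3 against 14.4 to 116 elsewhere, and its log2 fold change went from -2.46 to 0.40 without both. In the same fit Gja5 went from -0.97 to -0.17 and Chrm2 from -0.69 to -0.23.

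**Figure D5:**
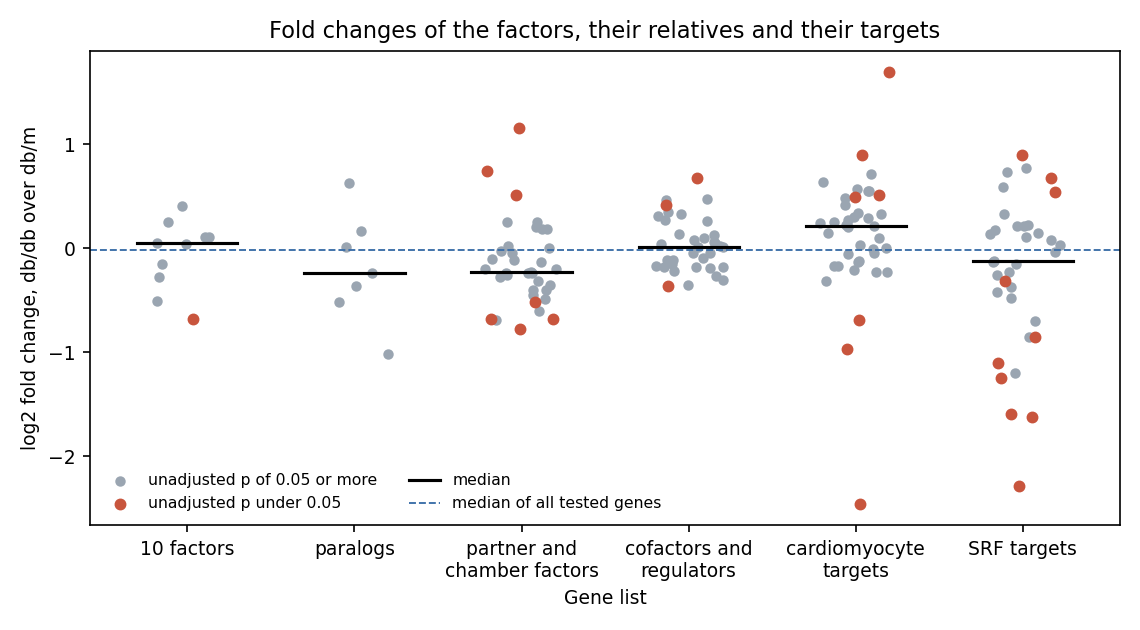
Log2 fold changes, db/db over db/m, of the tested genes of 6 lists, with red points at an unadjusted p under 0.05, black lines for list medians and a dashed line for the median of all tested genes (-0.019). The medians run from -0.24 in the paralogs (-0.12 without db/m replicates 1 and 3) to 0.21 in the cardiomyocyte targets (0.058), with 0.049 in the 10 factors, and 0 genes of these lists passed after adjustment over all genes.

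Genes whose course over the 8 libraries was nearest to a factor were found by the root mean square difference of centred log2 CPM over 14477 other genes. For Nkx2-5 the nearest was Afg1l, at 0.042 log2 units, for Tbx20 Pank3 (0.064), for Tbx5 Fads2 (0.12) and for Hand2 Abra (0.14). Gata4 was nearest to Parp3 (0.049), Gata6 to Eif2a (0.079), Mef2a to Ppp1r7 (0.040), Mef2c to Zdhhc3 (0.053), Mef2d to Akap1 (0.058) and Srf to the predicted gene Gm7984 (0.055). No factor had another of the 10 among its 3 nearest genes. Of the pairs within the 10, Gata4 and Mef2d were closest (0.093), and Mef2a and Mef2c differed by 0.13.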

How the data were processed

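RNA was sequenced from 8 heart samples, 4 db/m and 4 db/db, each library made from 3 µg of total RNA, per the labels' protocols. Per the file headers, the authors deposited raw counts for each Ensembl gene in each library. The other deposited column used is the exon length of each gene in bases. The build is mm10 per the submitters' processing notes, while for the aligner, counter, annotation and strand use nothing is given in the sources used here. Rows naming no gene numbered 0, and the 8 single-sample files equalled the table. Symbols came from GENCODE M21 (GRCm38) for 55394 of 55573 identifiers. Promoter sequences are RefSeq's on GRCm38.p6.

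The test of the counts was that of edgeR 4.0.16 (R 4.3.3, filterByExpr with minimum count 10, TMM, robust quasi-likelihood F test, genotype as the factor, two-sided, Benjamini-Hochberg over 17411 genes, threshold 0.05). CPM are relative to TMM-scaled sizes. Log2 CPM used a prior count of 2 and ratios a pseudocount of 0.5, with exact permutation over 70 splits. The scripts were tested on simulated data. Alternatives were DESeq2 1.42.0, limma-voom (limma 3.58.1), other scalings and filters, a replicate block and leaving out each library. Fits without db/m replicates 1 and 3, and scaled to cardiomyocyte markers, were added after seeing the data. The 10 genes and all lists were chosen with earlier results of these data known. Named genes are the 10, up to 4 genes of each of 5 pathway lists by smallest p, genes sharing exons with the 10 and the nearest genes. Other genes named with values (Lmod1, Flna, Actg2, Actb, Myl9, Actc1, Actg1, Fhl2, Vcl, Fhl1, Egr2, Cnn1, Nppa, Gja5, Chrm2, Sln, Isl1, Nr2f1, Etv1, Foxo1, Myl2, Myl3, Irx4, Myh7, Hey2, Myh6, Ttn, Ryr2, Tnnt2, Tnni3, Ldb3 and paralogs other than Tbx18, Tbx1, Tbx15 and Tbx2) were chosen after their values were seen.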

Additional observations from a re-analysis of the deposited data

Results flagged for a closer look

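Among 30 groups of 4 values checked (10 genes and 5 ratios in each genotype), 3 held a library far from the others of its group, where chance alone flags about 1 in 20. Tbx5 in db/db replicate 4, at 51.3 CPM, stood apart from 29.4 to 31.4 CPM in the other db/db libraries. The log2 ratio of Tbx5 to Tbx20 in the same library, -0.59, stood apart from -1.50 to -1.35 in the others. This library had an atrial marker sum of 196 CPM, within the 176 to 257 CPM of the db/db group, and Tbx20 at 198 CPM. Mef2c in db/m replicate 3, at 168 CPM, stood apart from 127 to 132 CPM in the other db/m libraries.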

How the results depend on the processing

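None of the 10 genes was called under any of the 18 alternatives. The count of genes called over the whole table, 1 as reported, was 377 by DESeq2, 101 by limma-voom, 27 without a filter on low counts, 5 with the replicate block, 46 without db/m replicates 1 and 3, and 0 to 106 when each library was left out, with 106 without db/m replicate 3. Of 180 fold changes of the 10 genes under alternatives 165 kept their direction and 15 did not, and Gata6, Tbx5, Hand2, Mef2c and Srf kept theirs in all 18. Scaled by library sizes alone the log2 fold change was -0.062 for Gata4, -0.077 for Mef2a and -0.0059 for Mef2d. Scaled to cardiomyocyte markers it was -0.083 for Gata4, -0.0028 for Nkx2-5, -0.099 for Mef2a and -0.021 for Mef2d. These scalings move the median of all genes from -0.019 to -0.13 and -0.15, and relative to it none of these genes is lower. Nkx2-5 had -0.048 by limma-voom. Without db/m replicates 1 and 3 Gata4 had -0.036, Nkx2-5 -0.14 and Tbx20 0.038. Leaving out single libraries gave -0.027 to 0.11 for Gata4, -0.0059 to 0.17 for Mef2a and -0.054 to 0.22 for Nkx2-5. The difference in the log2 ratio of Mef2a to Mef2d was 0.15 and that of Nkx2-5 to Gata4 -0.099 without both libraries, and -0.15 to 0.051 and -0.064 to 0.20 when each library was left out. The cause was not tested. Same-numbered libraries correlated at -0.088 to 0.056 in their deviations from group means. With 4 libraries a group these values cannot decide whether the numbers pair the samples. With the replicate block 0 of the 10 genes passed. The SE of Hand2 went from 0.25 to 0.16 under that block, and the SE of Gata4 from 0.13 to 0.15. Paralogs with counts near 0 could not be tested at this depth.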
